A study of Arabidopsis thaliana with 12 samples.

Results

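A set of 68 Arabidopsis thaliana genes was nearly silent in wild-type seedlings and gave reads in every library of both FACT mutants. The members were chosen by their counts: a sum of at most 9 over the 3 Col-0 libraries, at least 1 count in each of the 6 libraries of ssrp1-2 and spt16-2, and a sum of at least 60 over those 6. Of 32833 genes in the count table, 26456 had a count in any library and 81 met these thresholds. Of those 81, 12 were left out because they had at most 3 counts in Col-0 and at least 10 in each nrpb2-3 library, and SEP2, a floral organ gene, was left out by name. The members' low level in Col-0 and higher level in the FACT mutants are therefore the selection itself and are described here without a test.

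RNA was measured in seedlings 12 days after germination, grown in soil under long days at 21 °C after 4 days in the cold at 4 °C. The genotypes were the wild type Columbia-0 (Col-0), the mutants ssrp1-2 and spt16-2, and the mutant nrpb2-3, with 3 libraries each. All are named by allele alone, and the labels give no lesion, no transgene and no statement that replicates came from separate sowings, so p-values measure the spread between these libraries, which may be technical. The libraries held 39483328 to 43434901 counts.

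FACT is a histone chaperone made of SPT16 and SSRP1. It loosens nucleosomes ahead of RNA polymerase II (Pol II) and puts histones back behind it, and in yeast its loss lets transcription start at sites that chromatin normally hides. NRPB2 is the second-largest subunit of Pol II. Genes that a seedling keeps off are often those of flowers, pollen, seeds or other late organs, and they are held off by chromatin as well as by a lack of activators.

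As a check of the labels, SSRP1 had 20.7, 19.7 and 17.9 CPM (counts scaled to library size by TMM) in ssrp1-2 and 38.9, 48.4 and 44.2 in Col-0. SPT16 had 27.8, 55.4 and 30.01 CPM in spt16-2 and 44.9, 62.0 and 54.6 in Col-0. The library labelled spt16-2 replicate 2 was thus within the wild-type range for its own gene. The members' summed level in that library, 35.7 CPM, lay close to the 38.5 and 36.2 CPM of the other spt16-2 libraries. That sum is no check of the label, because the members were chosen in part by their counts in this library.

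The members stayed rare transcripts in the mutants. Their counts over the 6 FACT libraries ranged from 60 to 500 with a median of 86; 44 members stayed under 100 and 9 reached 200. In Col-0, 4 members had 0 counts, 15 had 1 to 3 and 49 had 4 to 9. The authors' deposited signal, which is scaled by gene length, had a median of 0.431 over members in the FACT libraries and of 8.998 over all 20471 genes that passed a filter on low counts. Of the 68 members, 12 reached a signal of 1. The filter passed 62 members, and 6 did not pass: CYP94B3, AT3G13760, AT3G18720, AT4G25920, AT5G61100 and AT5G54550.

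All members together had 101, 126 and 140 counts in the Col-0 libraries, 1006, 1445 and 1465 in ssrp1-2, 1494, 1456 and 1352 in spt16-2, and 851, 981 and 1363 in nrpb2-3. In Col-0 replicate 1, 33 members had a count, against 46 and 45 in the other Col-0 libraries. On the scaled CPM level the member sums were 2.96 to 3.76 in Col-0, 27.4 to 39.5 in ssrp1-2, 35.7 to 38.5 in spt16-2 and 17.4 to 23.2 in nrpb2-3. The ssrp1-2 sum depends on 1 gene in 1 library: without CYP94B3 the ssrp1-2 libraries held 27.4, 26.3 and 36.8 CPM. In ssrp1-2, replicate 3 was the highest library for 34 members, replicate 1 for 16 and replicate 2 for 18, while in spt16-2 the split was 23, 21 and 24. Seedlings were sampled whole, so more RNA per cell and more cells of a type cannot be told apart.

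**Figure D1:**
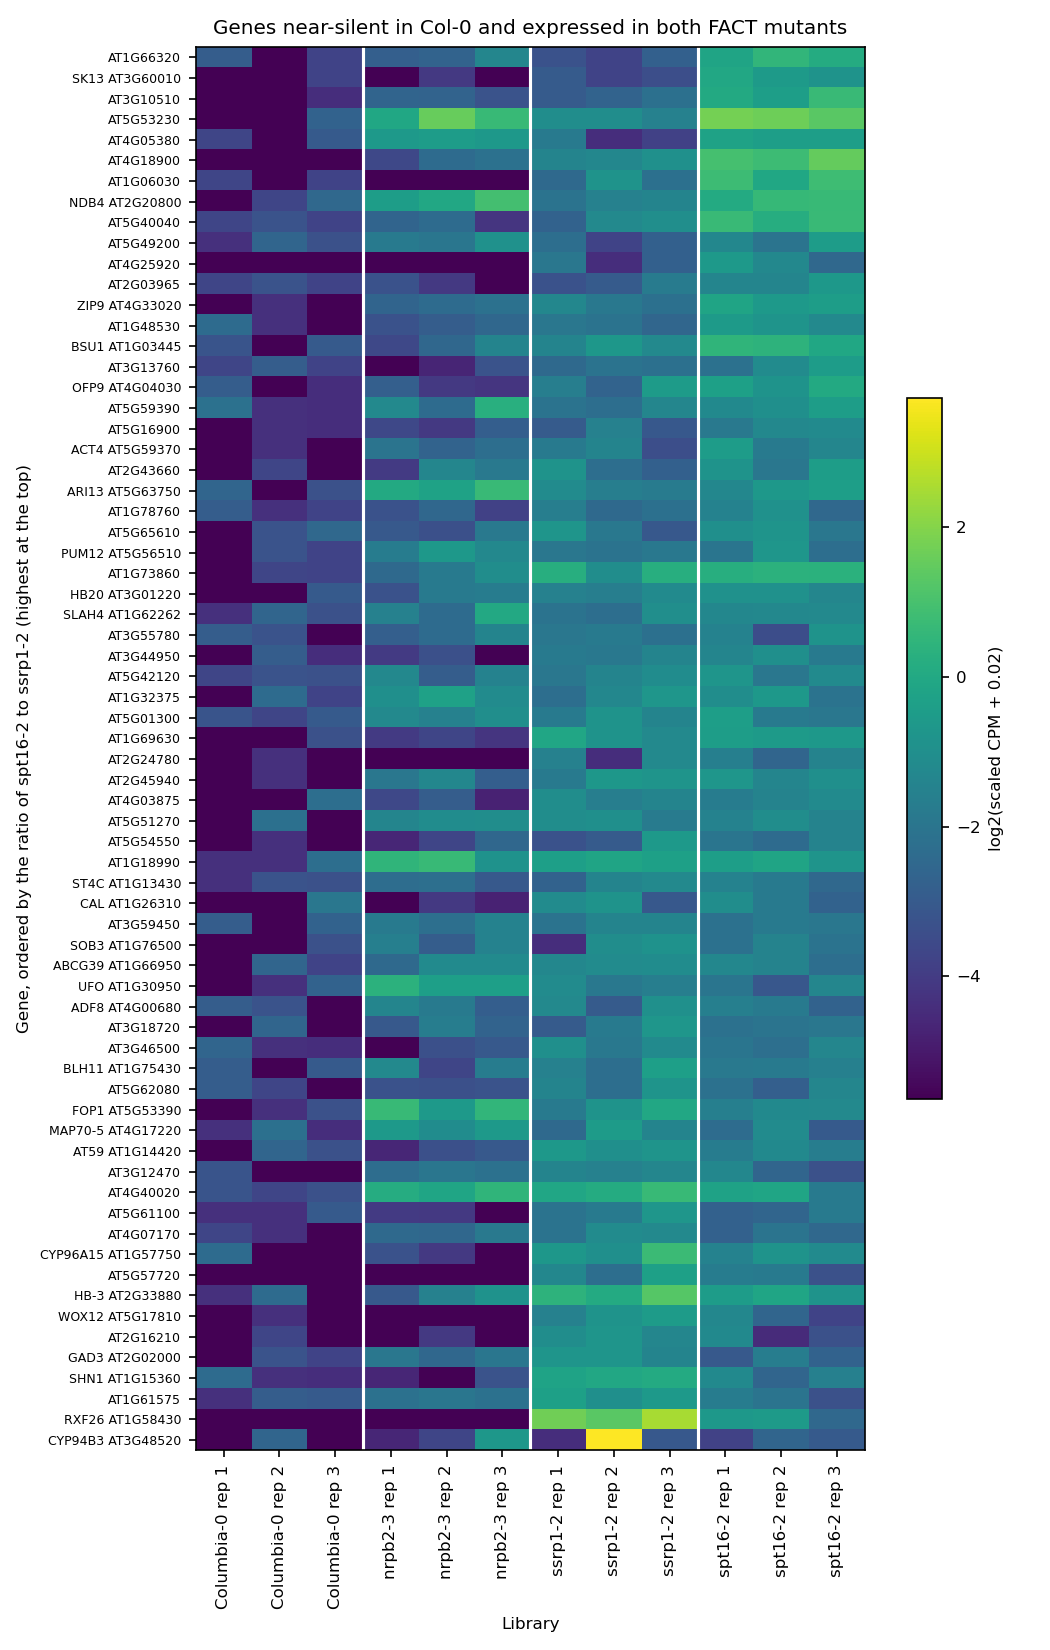
Levels of the 68 members (rows, from the highest ratio of spt16-2 to ssrp1-2 at the top) in the 12 libraries (columns), as log2 of the scaled CPM plus 0.02. The Col-0 columns are dark throughout because of the selection, the nrpb2-3 columns are mixed, and a single bright cell marks CYP94B3 in ssrp1-2 replicate 2.

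The most abundant members differed in which mutant carried the reads. RXF26 (AT1G58430), annotated as an anther-specific proline-rich protein with a GDSL lipase domain, had 0 counts in each Col-0 library and in each nrpb2-3 library. It had 118, 90 and 226 counts in ssrp1-2 and 24, 27 and 6 in spt16-2. Every ssrp1-2 library was above every spt16-2 library, with means of 3.79 ± 1.69 and 0.481 ± 0.278 CPM (SD, n = 3), and the level over the FACT libraries was at least 75.5-fold that of Col-0, taking 3 counts over its libraries as the floor.

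AT5G53230, which encodes a protein of unknown function with a DUF295 domain, showed the opposite order. Its counts were 0, 0 and 5 in Col-0, 17, 17 and 13 in ssrp1-2, 130, 128 and 93 in spt16-2, and 46, 149 and 92 in nrpb2-3. The spt16-2 mean of 2.99 ± 0.45 CPM was the highest of any member in that mutant, and the nrpb2-3 mean of 1.80 CPM (SD 0.9996, n = 3) was the highest in nrpb2-3.

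AT4G18900, a WD40 repeat protein, had 0 counts in every Col-0 library, 13, 14 and 20 in ssrp1-2, 74, 70 and 106 in spt16-2, and 3, 9 and 12 in nrpb2-3. It was high in spt16-2 alone, without overlap with any other group. AT4G18905 shares a stretch of 103 bases with it at 96.1% identity, so reads may be split between them.

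AT5G40040, of the acidic ribosomal protein family, had 2, 3 and 2 counts in Col-0, 5, 15 and 19 in ssrp1-2, 62, 46 and 60 in spt16-2 and 7, 9 and 2 in nrpb2-3. AT1G06030, a sugar kinase of the pfkB family, had 2, 0 and 2 counts in Col-0, 6, 20 and 8 in ssrp1-2, 66, 38 and 65 in spt16-2, and 0 in each nrpb2-3 library. NDB4 (AT2G20800), an alternative NAD(P)H dehydrogenase of mitochondria, had 0, 2 and 6 counts in Col-0, 8, 12 and 14 in ssrp1-2, 40, 62 and 58 in spt16-2, and 35, 49 and 110 in nrpb2-3. In all of these genes every spt16-2 library was above every ssrp1-2 library, while nrpb2-3 ranged from silent to about the spt16-2 level.

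Among the most abundant members, HB-3 (AT2G33880), also called WOX9, a homeodomain factor needed for meristem growth, leaned to ssrp1-2. It had 1, 6 and 0 counts in Col-0, 48, 38 and 95 in ssrp1-2, 27, 36 and 20 in spt16-2 and 5, 17 and 31 in nrpb2-3. AT4G40020, a myosin heavy chain-related protein, had 3, 2 and 3 counts in Col-0, 34, 39 and 63 in ssrp1-2, 32, 36 and 10 in spt16-2, and 54, 46 and 82 in nrpb2-3. AT1G73860, a P-loop ATPase-like protein, had 0, 2 and 2 counts in Col-0, 42, 17 and 46 in ssrp1-2, 45, 52 and 47 in spt16-2 and 8, 14 and 27 in nrpb2-3. On the scaled level alone, AT4G40020 was narrowly without overlap higher in ssrp1-2 (lowest library 0.925 CPM) than in spt16-2 (highest library 0.883 CPM). AT1G73860 was narrowly without overlap the other way, also on the scaled level alone, with means of 0.922 ± 0.396 and 1.23 ± 0.06 CPM (SD, n = 3) in ssrp1-2 and spt16-2.

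CYP94B3 (AT3G48520), a cytochrome P450 that inactivates the jasmonate hormone, ranked highest by its mean but on a single library. It had 483 counts in ssrp1-2 replicate 2, 1 and 4 in the other ssrp1-2 libraries, 2, 6 and 4 in spt16-2, 0, 5 and 0 in Col-0, and 1, 3 and 35 in nrpb2-3. Without ssrp1-2 replicate 2 its FACT sum was 17, and it would not have been a member.

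**Figure D2:**
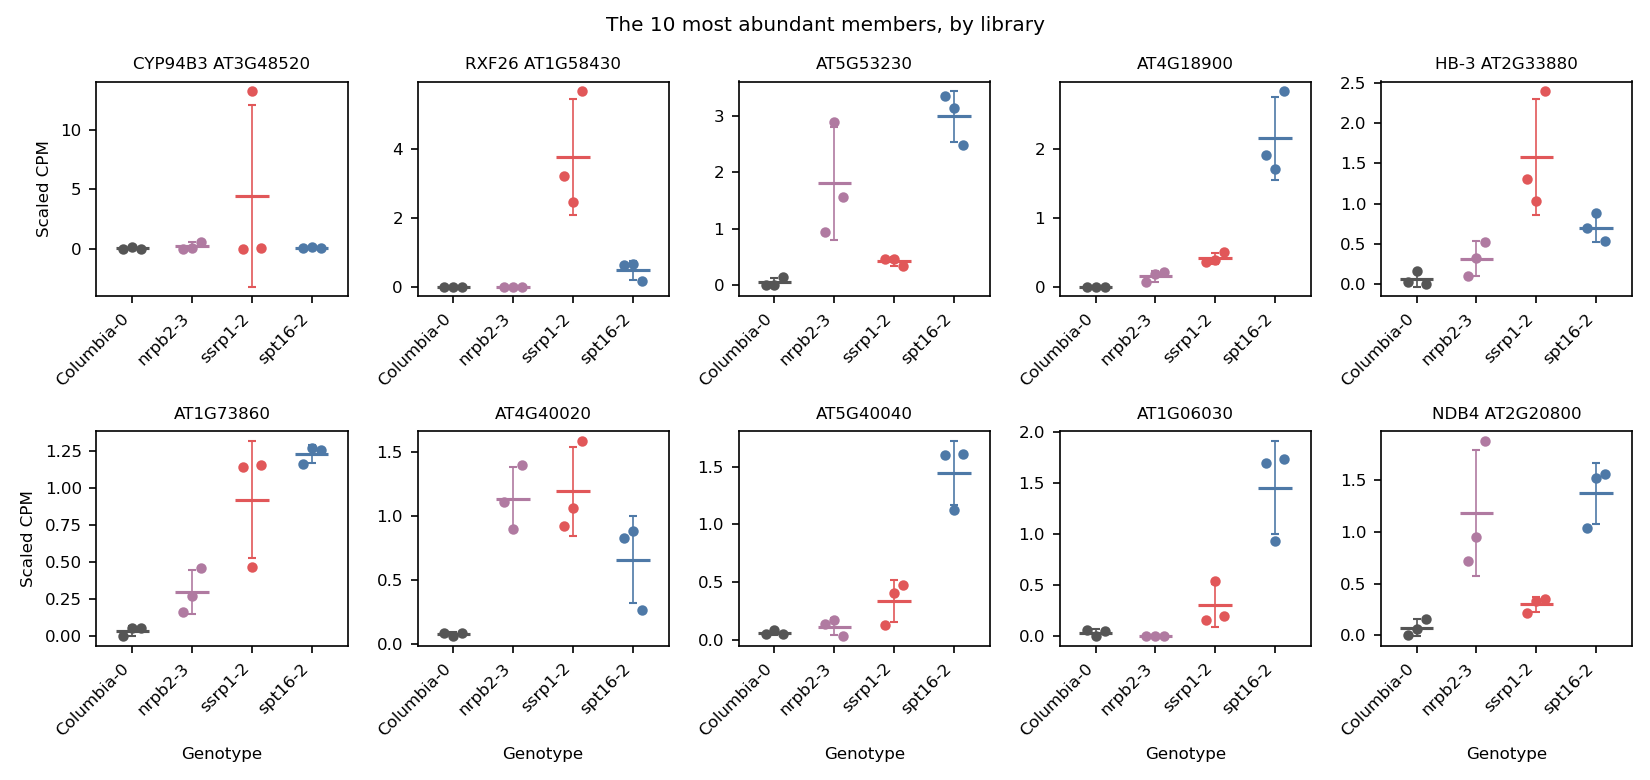
Scaled CPM of the 10 most abundant members in each library (points), with the mean (horizontal line) and SD (error bar) of the 3 libraries of each genotype. The panel of CYP94B3 shows 1 library far above the rest, and those of AT5G53230, AT4G18900, AT5G40040, AT1G06030 and NDB4 show spt16-2 above ssrp1-2.

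Promoters of 3 of these genes are shown because they hold a telobox, the motif AACCCTA on either strand, which is known from promoters of plant ribosomal protein genes. Each is the 250 bases before the annotated start, 5′ to 3′ on the gene's own strand, from the RefSeq assembly TAIR10.1, with the telobox in capitals. The promoter of AT5G53230 lies at chr5:21598598-21598847 on the plus strand, that of AT5G40040 at chr5:16030336-16030585 on the minus strand and that of NDB4 at chr2:8955832-8956081 on the minus strand.
AT5G53230: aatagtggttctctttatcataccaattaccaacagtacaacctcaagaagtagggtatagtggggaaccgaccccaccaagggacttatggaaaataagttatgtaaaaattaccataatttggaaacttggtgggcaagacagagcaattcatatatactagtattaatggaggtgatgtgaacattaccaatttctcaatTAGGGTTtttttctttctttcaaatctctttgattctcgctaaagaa
AT5G40040: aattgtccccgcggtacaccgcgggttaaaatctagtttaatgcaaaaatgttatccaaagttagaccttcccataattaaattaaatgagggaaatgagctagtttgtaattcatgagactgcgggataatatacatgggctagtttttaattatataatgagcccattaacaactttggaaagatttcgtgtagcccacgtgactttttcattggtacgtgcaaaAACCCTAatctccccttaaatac
NDB4: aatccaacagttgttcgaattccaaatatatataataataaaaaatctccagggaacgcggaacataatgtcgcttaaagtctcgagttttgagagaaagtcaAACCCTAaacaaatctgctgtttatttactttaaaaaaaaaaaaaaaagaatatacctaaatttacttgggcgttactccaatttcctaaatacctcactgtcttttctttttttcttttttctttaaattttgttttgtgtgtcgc

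The telobox was present in 9 of 66 protein-coding members' 250-base windows (13.6%) and in 1799 of 27443 windows of all protein-coding genes (6.56%). It was present in AT4G18900, AT4G40020, AT1G61575, AT2G24780, AT2G45940 and ADF8 too. With 50 bases after the start included, the shares were 13 of 66 (19.7%) and 8.83%. None of the 250-base member windows held a CArG box, the site of MADS-domain factors (CC, 6 bases of A or T, then GG), against 2.52% of all windows, and 1 held it with the 50 bases included (1.52%, against 3.05% of all). In the 250-base windows TATAAA was found in 40.9% and 47.4%, GAGAGA in 22.7% and 20.6%, and CACGTG in 7.58% and 6.49%. A match describes these letters only.

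The role group of flower and reproductive organ genes held 5 members, with RXF26 among them. By the annotation notes, 6 of 68 members named such organs, SHN1 being the other one, against 829 of 32548 nuclear genes of the table. CAL (AT1G26310), a MADS-domain regulator of floral meristems and a close relative of AP1, had 0, 0 and 9 counts in Col-0, 16, 20 and 4 in ssrp1-2, 18, 11 and 5 in spt16-2, and 0, 2 and 1 in nrpb2-3. All of its Col-0 reads came from replicate 3, and replicate 3 was its lowest library in both FACT mutants. UFO (AT1G30950), an F-box protein that activates petal and stamen genes together with LEAFY, had 0, 1 and 5 counts in Col-0, 16, 9 and 12 in ssrp1-2, 9, 4 and 14 in spt16-2, and 62, 39 and 45 in nrpb2-3. FOP1 (AT5G53390), a wax ester synthase of growing petals, likewise had its highest counts in nrpb2-3, at 76, 33 and 83, against 10, 20 and 38 in ssrp1-2, 12, 17 and 15 in spt16-2, and 0, 1 and 3 in Col-0. ACT4, a reproductive actin, had 1 count in Col-0, 26 over ssrp1-2 and 52 over spt16-2.

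Other transcriptional regulators numbered 9. AT2G16210, a B3-domain factor, had 2 counts in Col-0, 53 over ssrp1-2 and 20 over spt16-2. SHN1 (AT1G15360), an activator of cuticular wax synthesis that is also expressed in flowers, had 6, 1 and 1 counts in Col-0, 31, 35 and 41 in ssrp1-2, 16, 6 and 12 in spt16-2 and 1, 0 and 5 in nrpb2-3. WOX12 (AT5G17810), a homeodomain factor of adventitious root founder cells, had 0, 1 and 0 counts in Col-0, 12, 20 and 27 in ssrp1-2, 15, 6 and 2 in spt16-2 and none in nrpb2-3. BLH11, HB20, SOB3, OFP9 and AT5G57720 had FACT sums of 69 to 133. Homeobox products made up 4 of 66 coding members (6.06%) and 0.408% of all coding genes in the table.

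Genes for F-box, SKP1, ubiquitin and proteasome proteins numbered 9. F-box proteins choose targets for ubiquitin ligases, which SKP1 links to the core enzyme. SK13 (AT3G60010), an SKP1-like protein, had 0, 0 and 2 counts in Col-0, 4, 2 and 3 in ssrp1-2, 37, 27 and 20 in spt16-2, and 0, 2 and 0 in nrpb2-3. AT1G66320, an F-box protein, had 4, 0 and 2 counts in Col-0, 3, 2 and 5 in ssrp1-2, 34, 58 and 40 in spt16-2 and 6, 7 and 22 in nrpb2-3, so that ssrp1-2 was close to Col-0. It shares 997 bases at 97.1% identity with AT1G66640. Including UFO, F-box products made up 6 of 66 coding members (9.09%) and 2.49% of all coding genes.

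The 12 enzymes of wax, hormone, wall and energy metabolism ran from 63 to 500 FACT counts. CYP96A15, the midchain alkane hydroxylase of stem wax, had 6, 0 and 0 counts in Col-0, 22, 18 and 66 in ssrp1-2, 13, 22 and 16 in spt16-2 and 4, 2 and 0 in nrpb2-3. BSU1, a phosphatase of brassinosteroid signalling, had 3, 0 and 4 counts in Col-0, 13, 22 and 16 in ssrp1-2, 53, 53 and 35 in spt16-2 and 3, 8 and 21 in nrpb2-3. GAD3, a glutamate decarboxylase, went the other way, at 21, 21 and 14 in ssrp1-2 and 4, 12 and 5 in spt16-2.

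Kinases, RNA-binding, repeat and other domain proteins formed the largest role group, with 14 members. AT3G10510, a kelch repeat protein, had 0, 0 and 1 counts in Col-0, 4, 5 and 8 in ssrp1-2, 39, 30 and 60 in spt16-2 and 7, 7 and 5 in nrpb2-3. The 5 cytoskeleton and motor genes included the microtubule-associated MAP70-5, with 45 counts over ssrp1-2, 29 over spt16-2 and 9 in Col-0, and the actin-depolymerizing ADF8, with 39, 28 and 7. The 3 transporters were ZIP9, a metal transporter, ABCG39 and the anion channel homologue SLAH4. ZIP9 had 1 count in Col-0, 31 over ssrp1-2 and 87 over spt16-2. The 2 lncRNAs, AT4G03875 and AT4G07170, and 5 uncharacterized proteins had FACT sums of 60 to 85.

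The difference between spt16-2 and ssrp1-2 was tested, although the rule did not leave it free. Besides the minimum of 1 count in each library, the sum over both mutants admitted genes high in 1 mutant alone. SK13, AT3G10510, AT1G66320, AT5G40040 and AT1G06030, among others, could not have reached 10 counts in 3 libraries without spt16-2. RXF26, among others, could not have done so without ssrp1-2. The shares and calls of members between the mutants are therefore partly set by the rule and the filter. By edgeR's quasi-likelihood test with Benjamini-Hochberg adjustment over all genes, 0 of the 62 tested members were called higher in spt16-2 (background 0.0537% of all tested genes) and 0 lower (0.0147%). At an unadjusted p under 0.05, 12 members were higher in spt16-2 and 4 were lower, which is 25.8% of tested members and 3.02% of all tested genes. Without overlap of the libraries, 16 of all 68 members were higher in spt16-2 (23.5%) and 7 higher in ssrp1-2 (10.3%), and 45 overlapped. These 16 and 7 were all among the 62 members that passed the filter. The background, over genes that passed the filter, was 4.52% higher in spt16-2 and 3.98% higher in ssrp1-2. Means were at least 2-fold apart in 30 members, 19 higher in spt16-2 and 11 higher in ssrp1-2, and at least 4-fold apart in 9 and 2.

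The tested members nearest to a call were AT1G66320, with a log2 fold change of 3.63 ± 0.69 (SE) in spt16-2 over ssrp1-2 and an edgeR adjusted p of 0.125, and AT5G53230, with 2.83 ± 0.54 and an edgeR adjusted p of 0.125. They were followed by AT3G10510 (2.87 ± 0.56, edgeR adjusted p 0.135), AT4G18900 (2.37 ± 0.45, edgeR adjusted p 0.166) and RXF26 (-2.97 ± 0.54, edgeR adjusted p 0.185). Each was without overlap between the mutants. The calls changed with the fit: DESeq2, which also tested more genes and gave an adjusted p to 67 members, called 5 higher (background 0.129%) and 1 lower (0.0568%). These were AT5G53230 (adjusted p 6.48e-06 by DESeq2), AT4G18900, AT1G66320, AT3G10510 and NDB4, and on the lower side RXF26 (adjusted p 0.000146 by DESeq2). An edgeR fit of the 6 FACT libraries alone called 3 of 58 members higher (0.0864%), AT5G53230, AT1G66320 and AT4G18900, and 0 lower (0.0254%). With the replicate number as a block, edgeR called 0 members in either direction (background 0.0635% and 0.0342%).

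**Figure D3:**
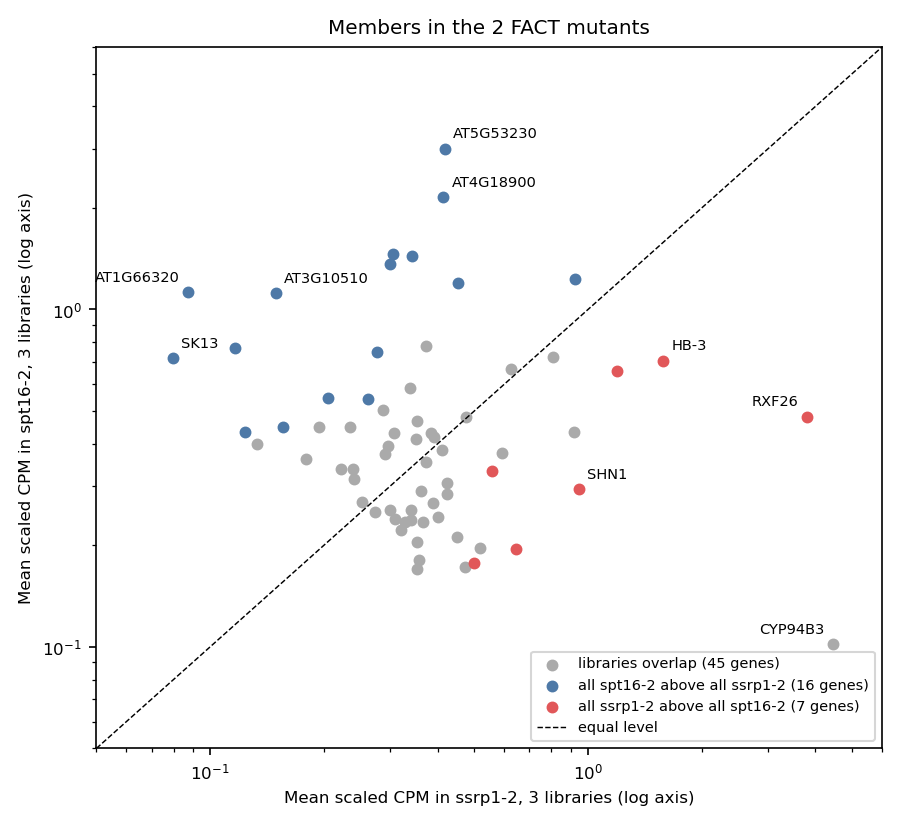
Mean scaled CPM of each member in spt16-2 against ssrp1-2 (log axes, 3 libraries each). Colours mark the 16 members with every spt16-2 library above every ssrp1-2 library and the 7 with the reverse; the other 45 overlap. AT5G53230 and AT4G18900 lie far above the line of equal level and RXF26 far below it, and CYP94B3 stands at the right edge because of 1 library.

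The Pol II mutant gave a mixed picture of the same genes. The rule had removed only genes with at most 3 counts in Col-0 and at least 10 in each nrpb2-3 library, so nrpb2-3 levels are partly chosen and are described without a test. Every nrpb2-3 library was above every Col-0 library in 34 members, in 34 they overlapped, and in none was nrpb2-3 below; over all tested genes nrpb2-3 was above in 24.3%, and low Col-0 counts were part of the selection. In nrpb2-3, 6 members had 0 counts in all libraries, 52 had at least 1 in each and 16 at least 10 in each. The 6 at 0 were RXF26, AT1G06030, WOX12, AT5G57720, AT4G25920 and AT2G24780. Every nrpb2-3 library was below every FACT library in 24 members (21 of them past the filter; background 15.9%) and above in 2, ARI13 and UFO (background 16.2%). ARI13, a RING-type ubiquitin ligase, had 49, 42 and 94 counts in nrpb2-3, 16, 11 and 11 in ssrp1-2 and 15, 25 and 28 in spt16-2.

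**Figure D4:**
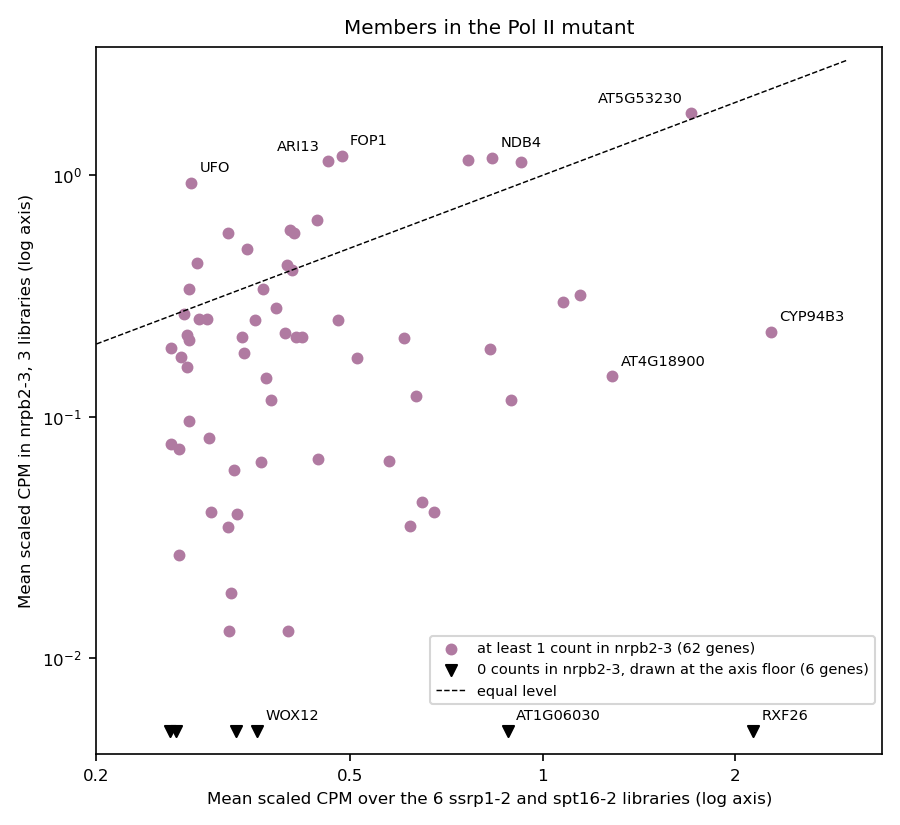
Mean scaled CPM of each member in nrpb2-3 (3 libraries) against the mean over the 6 FACT libraries (log axes); triangles at the floor are the 6 members with 0 counts in nrpb2-3. In 16 members the nrpb2-3 mean was above the FACT mean, with AT5G53230, FOP1 and NDB4 the highest in nrpb2-3.

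Members of the DUF295 family, plant proteins of unknown function that often carry an F-box, made up 4 of 66 coding members (6.06%) and 69 of 27444 coding genes in the table (0.251%). The family was singled out after its values were seen. Beside AT5G53230, AT2G45940 had 1 count in Col-0, 10, 22 and 22 in ssrp1-2, 23, 15 and 18 in spt16-2 and 12, 20 and 7 in nrpb2-3. AT4G25920 had 0 counts in Col-0 and nrpb2-3, 9, 1 and 5 in ssrp1-2 and 25, 16 and 6 in spt16-2. AT5G54550 had 1 count in Col-0, 3, 4 and 25 in ssrp1-2, 9, 7 and 13 in spt16-2 and 1, 3 and 9 in nrpb2-3.

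Of the 65 DUF295 genes outside the rule, 22 were tested and 3 were called higher in spt16-2 than in Col-0 by edgeR (13.6%, background 0.376%). Of these 3, AT1G30170 had met the thresholds, and without it 2 of 21 were called (9.52%). In ssrp1-2, 0 were called higher (background 0.454%). At an unadjusted p under 0.05, 3 of the 22 were higher there, against 1129 of all 20471 tested genes. DESeq2 gave 32 of the 65 an adjusted p and called 4 higher in spt16-2, AT5G25290 being the other one, and 1 in ssrp1-2, AT1G30170. No background share was computed for DESeq2 against Col-0. The 3 genes called by edgeR and AT5G25290 had 0 counts in every Col-0 library. AT5G53240, AT5G55150 and AT5G25290 had at most 3 counts in any ssrp1-2 library and could not have passed the filter through Col-0 or ssrp1-2. These shares are therefore partly set by the filter. AT5G53240 had 26, 43 and 25 counts in spt16-2, 0, 0 and 3 in ssrp1-2 and 26, 33 and 15 in nrpb2-3. It was at least 28.4-fold above Col-0 in spt16-2 (edgeR adjusted p 0.0202). AT5G55150 had 23, 13 and 10 counts in spt16-2, 0, 1 and 0 in ssrp1-2 and 3, 4 and 8 in nrpb2-3. It was at least 13.9-fold above Col-0 in spt16-2 (edgeR adjusted p 0.0456). AT1G30170, which met the thresholds and was left out for its nrpb2-3 counts of 18, 12 and 16, had 22, 26 and 29 in spt16-2 and 6, 1 and 17 in ssrp1-2 (edgeR adjusted p 0.0274 in spt16-2). Over the alternatives tried, the largest adjusted p of AT5G53240, AT5G55150 and AT1G30170 in spt16-2 was 0.0833, 0.192 and 0.112 in the order given. For the F-box family, 196 genes outside the members were tested against Col-0. By edgeR, 0 were called higher and 1 lower in ssrp1-2, and 1 higher and 0 lower in spt16-2. Of 88 tested homeobox genes outside the members, 3 were called higher and 0 lower in ssrp1-2, and 0 higher and 1 lower in spt16-2. The background for both families was 0.454% higher and 0.103% lower in ssrp1-2, and 0.376% higher and 0.044% lower in spt16-2.

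**Figure D5:**
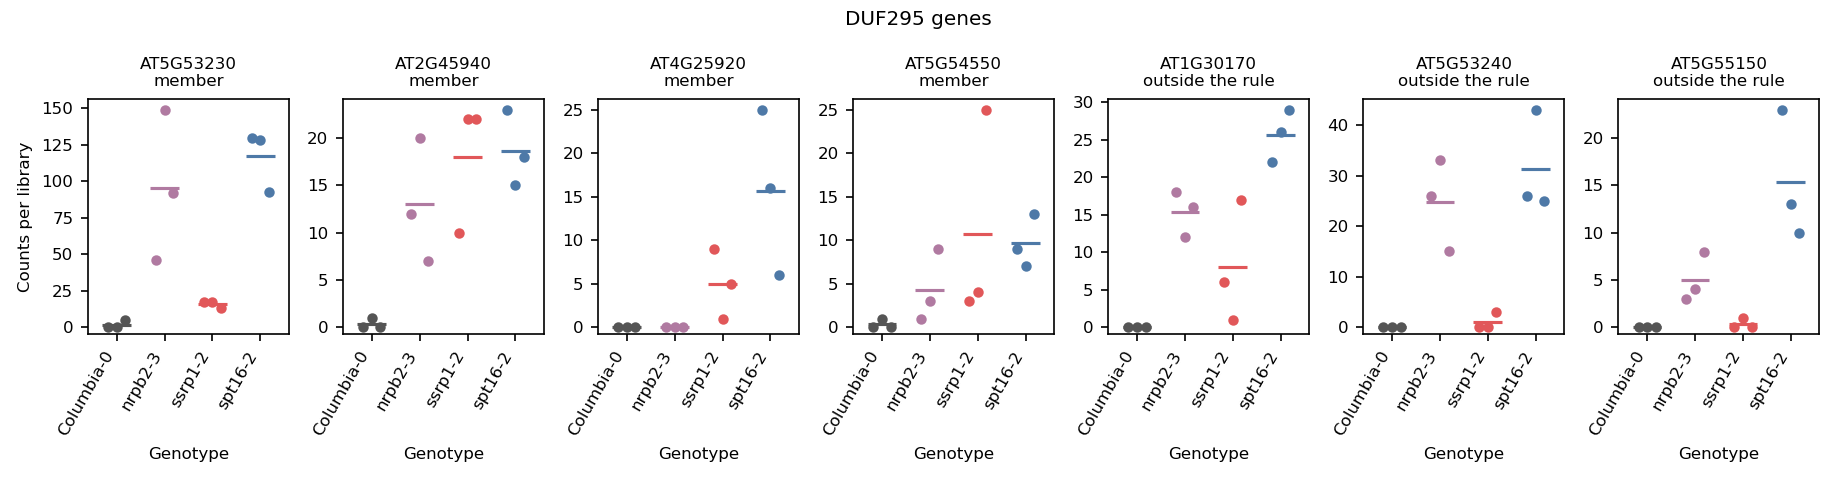
Counts per library of the 4 DUF295 members and of the 3 DUF295 genes outside the rule that were called higher in spt16-2 than in Col-0 (points are libraries, lines are means of 3). AT5G53230, AT5G53240 and AT5G55150 share high spt16-2 and low ssrp1-2 counts, while AT2G45940 is alike in both.

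Few genes next to the members were called. The nearest annotated gene on each side gave 136 distinct neighbours, of which 91 were tested. In ssrp1-2 against Col-0, 0 neighbours were called higher by edgeR (background 0.454%) and 1 lower (background 0.103%), and 4 were higher and 5 lower at an unadjusted p under 0.05. In spt16-2, 1 was called higher (background 0.376%) and 0 lower (background 0.044%), with 4 and 2 at an unadjusted p under 0.05. Over all 20471 tested genes, 1129 were higher and 790 lower at that unadjusted p in ssrp1-2, and 1000 and 679 in spt16-2. DESeq2 called as many neighbours as edgeR, 0 higher and 1 lower in ssrp1-2 and 1 higher and 0 lower in spt16-2. The median log2 fold change of neighbours was 0.00 in ssrp1-2 and 0.03 in spt16-2, and that of all tested genes was 0.00 in both. The neighbour called higher in spt16-2 was AT5G53240, described above, which lies 1472 bases downstream of AT5G53230 on the same strand. Between the mutants its log2 fold change was 4.77 ± 0.88 in spt16-2 over ssrp1-2 (edgeR adjusted p 0.139), and DESeq2 called it. The neighbour called lower in ssrp1-2 was AT1G78750, next to the F-box member AT1G78760, with 1.29 ± 0.60 CPM in Col-0 and 0.257 ± 0.040 in ssrp1-2 (SD, n = 3; log2 fold change -2.31 ± 0.46, edgeR adjusted p 0.0447). Leaving out any 1 of the 6 libraries compared ended the call of AT5G53240, and leaving out any but Col-0 replicate 3 ended that of AT1G78750.

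Genes of 9 lists of organ and tissue markers, 119 without the members CAL and UFO, were compared with Col-0. Of 50 tested, edgeR called 10 higher (background 0.454%) and 0 lower in ssrp1-2, and 7 higher (background 0.376%) and 0 lower in spt16-2. SEP2 is among them although it met the thresholds that chose the members; without it the counts were 9 and 6 of 49. Most were floral organ identity and meristem genes: 7 of 16 tested in ssrp1-2, with a median log2 fold change of 1.97, and 6 of 16 in spt16-2, with a median of 1.48 (6 and 5 of 15 without SEP2). AP3, a petal and stamen identity gene, had 0.114 ± 0.117 CPM in Col-0, 2.79 ± 0.73 in ssrp1-2 (edgeR adjusted p 0.00344) and 2.13 ± 0.33 in spt16-2 (edgeR adjusted p 0.00492). PI, SEP2, SEP3 and FUL (AGL8) were also called in both mutants, AP1 and LMI1 (HB51) in ssrp1-2 and SEP1 in spt16-2. AP1 in spt16-2 and SEP1 in ssrp1-2 were near the threshold, with edgeR adjusted p of 0.0533 and 0.0561, and DESeq2 called AP1 and SEP1 in both mutants. Between the mutants edgeR called no listed gene, and DESeq2 called QQS alone, lower in spt16-2. At an unadjusted p under 0.05 by edgeR, 2 of the 50 were higher and 9 lower in spt16-2. Over all 20471 tested genes, 310 were higher and 309 lower. Leaving out Col-0 replicate 2, Col-0 replicate 3 or ssrp1-2 replicate 3 left 6 of the 10 calls in ssrp1-2, with PI, LMI1, QQS and AT5G44630 lost each time. The calls of LMI1 and AT5G44630 in ssrp1-2 and of FUL in spt16-2 were lost whichever compared library was left out.

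The other lists gave few calls. Floral scent and nectary genes gave 2 in ssrp1-2 and 1 in spt16-2, with the sugar transporter SWEET10 called in both and the terpene synthase AT5G44630 in ssrp1-2. QQS, an epigenetically variable gene, was called in ssrp1-2, 1 of 3 tested in the list of genes silenced by DNA methylation. Carpel, anther, pollen, root and green leaf genes gave 0 calls in either mutant by edgeR. Only 6 of 10 carpel, 5 of 22 anther, 2 of 10 pollen, 5 of 11 root and 0 of 16 seed maturation genes were tested. The 0 calls therefore say nothing of the untested genes. At an unadjusted p under 0.05, 1 carpel and 1 anther gene were higher in ssrp1-2 (1129 of all 20471 tested genes) and 1 root gene lower in spt16-2 (679 of all). DESeq2 called 1 of these lists' genes, the carpel gene CRC in ssrp1-2. The anther and tapetum list summed to 27.1 to 28.5 CPM in Col-0, 27.0 to 30.8 in ssrp1-2 and 25.3 to 27.9 in spt16-2, with MS1, ATA1 and A7 at 0 counts in all libraries. Most of that sum came from TPD1, at 16.9 CPM in Col-0, with EMS1 at 4.52 and LAP6 at 4.17. Among its untested genes ACOS5 had 0 counts in Col-0, 31 over ssrp1-2 and 1 over spt16-2, and TDF1 had 0, 9 and 10. The seed maturation list stayed at or under 1.31 CPM in every library. The part of any of these tissues in the members' levels was not tested.

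Near the thresholds, AT2G24780 and AT4G07170 entered with 60 FACT counts and AT5G54550 with 61, while PRS, a WOX homeodomain gene, had 59, and ACX6 and AT5G53895 had 58. AT1G18990, AT1G61575 and AT5G59390 entered with 9 Col-0 counts, and AT5G37940, AT5G61490 and bZIP42 had 10 and stayed out. The requirement of 1 count in each FACT library kept out 21 genes that met the sums, such as AT1G17960 with 349 FACT counts. No member lay next to another on its chromosome. Members lay on chromosomes 1 to 5 in 21, 8, 11, 10 and 18 cases. The 66 coding members had a median transcript of 1442 bases, against 1516.5 for all coding genes, and 22.7% had a single exon, against 20.5%. Of the 68, 10 overlapped another annotated gene and 7 shared at least 100 bases at 95% identity or more with another gene, and how reads were counted, by strand or where shared between genes, is not given in the sources used here. The overlapping members are AT1G18990, HB20, MAP70-5, AT1G61575, AT5G01300, AT2G45940, AT1G32375, PUM12, AT5G65610 and AT2G03965, and those with a copy are OFP9, AT4G18900, AT5G59390, GAD3, AT2G24780, AT1G06030 and AT1G66320, so their counts are uncertain.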

How the data were processed

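RNA of 12 seedling libraries was sequenced by the submitters, and the submitters' processing notes name fastp 0.23.4, HISAT2 2.2.1 and the build TAIR10. The authors deposited raw counts per gene and a length-scaled signal table that they call TPM but whose columns do not share a sum, so the signal was used only to describe levels per length. All tests used the deposited counts, of which each library held 39483328 to 43434901; floors and intervals cover counting error only, because PCR copies cannot be told from separate molecules.

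Counts were scaled by TMM, filtered with filterByExpr (minimum count 10) and fitted across all genes with edgeR 4.0.16 (R 4.3.3) by a robust quasi-likelihood model of all 12 libraries with genotype as the single factor. Calls are adjusted p under 0.05 (Benjamini-Hochberg, 20471 tested genes). The script was tested on simulated data. Groups came from the genotype labels. The members, lists, family groups and tests were chosen with earlier results of these data known. Named genes are the 10 most abundant members, members in a list, the 3 highest and 3 lowest in nrpb2-3 and those at the thresholds; other members are named as examples chosen after their values were seen. Where Col-0 had 0 counts, a fold is a lower bound against 3 counts over the group. Promoters and names came from the RefSeq annotation TAIR10.1, and copies were sought with blastn 2.17.0. Alternatives were RLE size factors, DESeq2 1.42.0, no filter, the compared libraries alone, a fold threshold of 2, a replicate block, other thresholds of the rule and each library left out; library totals with no factor were added after seeing the data. Same-numbered libraries deviated together in spt16-2 and ssrp1-2 (correlations 0.20, 0.34 and 0.29) and in spt16-2 and Col-0 (0.12, 0.35 and 0.31), from the data and not from the labels, but not in every pair of ssrp1-2 and Col-0 (-0.05, 0.37 and 0.23).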

Additional observations from a re-analysis of the deposited data

How the results depend on the processing

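Counts of a few reads per library limit every statement on single members. With DESeq2, 5 members were called higher and 1 lower in spt16-2 than in ssrp1-2, against 0 and 0 by edgeR; with the 6 FACT libraries alone 3 were called higher. Leaving out each library gave 0 in both directions. The neighbour called lower in ssrp1-2 was lost (0) with the compared libraries alone and with library totals, and leaving out each library gave 0 to 1; the neighbour called higher in spt16-2 was lost without any 1 library (0 to 0). Listed genes called higher in ssrp1-2 were 10, and 6 to 8 without each library. The replicate block gave 12 of these in ssrp1-2, 7 in spt16-2, 1 neighbour in each mutant and 0 members, and changed no count by over 1.5 times. The rule gave 68 members, 19 with a Col-0 sum of at most 3, 160 with at most 15, 270 with a FACT sum of at least 30, 18 with at least 120, 62 on TMM-scaled counts, and 69 to 101 with 1 library left out and sums scaled. Of the 68, 54 to 66 were found again without each library. The causes were not tested. In the remaining settings, the counts of members, neighbours and listed genes stayed within 1.5 times of those reported. The 3 calls of DUF295 genes in spt16-2 were each lost in at least 1 setting.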
